A study of Mus musculus with 14 samples.

Results

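The 86 genes described here encode the proteins of the cytosolic ribosome. They were chosen by symbol: protein-coding genes of the GENCODE M21 annotation (mouse genome GRCm38) named Rpl or Rps with a number, Rplp with a number, or Rpsa, without the 10 genes of the S6 kinase family. The files list 35519 genes, and all 86 were among them, 52 of the large and 34 of the small subunit. The rule also takes Rps19bp1, which encodes a partner of the protein RPS19 and not a ribosomal subunit, and the paralogs Rpl3l, Rpl7l1, Rpl10l, Rpl22l1, Rpl36al, Rpl39l, Rps27l and Rps27rt. Rps27a, made as a fusion with ubiquitin, is a member. Rack1 and Fau, which also encode ribosome components, fall outside the rule.

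RNA was counted in 14 primary mouse lines from E13.5 embryos, none treated, with 1 library each. The submitters describe the lines as independent within each cell type. Mouse embryonic fibroblasts (MEFs), connective tissue cells grown from body tissue without head and internal organs, came from 3 WT and 5 KO lines. Neurospheres, floating cultures of neural stem and precursor cells grown from the head, came from 3 WT and 3 KO lines. KO denotes a targeted allele of H3f3a, 1 of the genes for the histone variant H3.3, which the series title calls knockout-first. The labels give no zygosity, strain or sex, and they do not say whether MEF and neurosphere lines came from the same embryos, which the tests below treat as unrelated. The kit reads the 3′ ends of polyadenylated RNA.

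Each ribosome carries 1 copy of nearly every ribosomal protein, so cells make these proteins in matched amounts. Many of their mRNAs begin with a tract of pyrimidines that starts with a C, called a 5′ terminal oligopyrimidine (TOP) motif, through which the kinase mTORC1 and the protein LARP1 control their translation. Ribosome production is costly and follows growth rate, and free ribosomal proteins such as RPL5 and RPL11 can bind Mdm2 and so stabilise p53.

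Promoter sequence was searched for short motifs, none of which was present in all of these genes. RefSeq (GRCm38.p6) held start sites for 66 of the 86. Windows of 30 bases, from 10 before to 20 after a start, are printed for genes with long tracts (Rpl27a, Rpl35, Rps10), for genes with large differences between the cell types (Rpl12, Rpl4) and for paralogs (Rps27 and Rps27l, Rpl39 and Rpl39l, and Rpl22l1). Capitals mark the longest run of C and T, on the sense strand, 5′ to 3′. A run within the first 10 bases, as in Rps27l and Rpl39l, lies before the start and so outside an mRNA that begins there.
Rpl27a: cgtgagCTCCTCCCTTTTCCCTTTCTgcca
Rpl35: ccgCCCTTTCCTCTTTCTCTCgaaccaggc
Rps10: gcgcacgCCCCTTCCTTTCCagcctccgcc
Rpl12: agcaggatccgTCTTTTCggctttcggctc
Rpl4: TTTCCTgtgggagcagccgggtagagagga
Rps27: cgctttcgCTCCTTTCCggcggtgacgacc
Rps27l: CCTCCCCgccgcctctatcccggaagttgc
Rpl39: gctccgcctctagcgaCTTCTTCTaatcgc
Rpl39l: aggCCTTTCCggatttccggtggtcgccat
Rpl22l1: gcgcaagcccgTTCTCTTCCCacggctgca
The windows lie at chr7:109519185-109519214 (plus strand), chr2:39005112-39005141 (minus), chr17:27635225-27635254 (minus), chr2:32961702-32961731 (plus), chr9:64173377-64173406 (plus), chr3:90213629-90213658 (minus), chr9:66946076-66946105 (plus, the first of its 2 listed starts), chrX:37085203-37085232 (minus), chr16:10170218-10170247 (plus) and chr3:28805498-28805527 (plus). A run of at least 7 pyrimidines was present in 33 of the 66 genes (50%), against 20.5% of the 27025 genes with a listed start. The run was 20 bases long in Rpl27a, 18 in Rpl35 and 13 in Rps10, and Rpl4 had 6. A window says nothing of other starts: the RefSeq start lay 1425 bases inside the GENCODE span of Rps10, 180 inside that of Rpl39 and 153 inside that of Rpl12, and also inside that of Rpl35. For Rps2 this distance was 1947 bases, and its window is not printed.

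Other short motifs were counted in the same table, over 300 bases (250 before to 50 after a start) and both strands. CCGGAAG, the core of a site for ETS family factors, stood in 39.4% of the ribosomal protein genes and 9.93% of all genes. GGGCGG, the core of a site for Sp family factors, stood in 62.1% and 38.2%. TATAAA stood in 10.6% and 15.7%. CTTTCC, which overlaps the pyrimidine runs, stood on the sense strand of the 30-base window in 16.7% of the ribosomal protein genes and 1.52% of all genes. These counts describe letters in a window and not bound sites.

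Levels of different genes were compared in the deposited TPM, which divide by transcript length although reads come only from 3′ ends, a scale that raises short transcripts. On it, the 84 detected genes (mean of at least 5 counts a line) spanned 346-fold. The most abundant were Rps29, with 9580.3 ± 786 TPM (SD, n = 8) in MEFs and 6494 ± 1209 (n = 6) in neurospheres, and Rps28, with 7549.8 ± 684 and 4453 ± 674. Rps12, Rpl23a and Rpl41 came next in the mean over all lines. Rps29 stood above the next gene by more than the sum of their SDs in both cell types, while Rps12 (7824 ± 805 TPM) and Rps28 in MEFs did not differ beyond their spread. The order was nearly the same in both cell types (Spearman's rho = 0.97 across 84 genes, a description, since the 2 cell types share the annotation and kit). At the low end, Rpl39l had the lowest mean over all lines of the detected genes, 23.9 TPM. Rpl7l1, a paralog of Rpl7, had 37.3 ± 5.17 TPM in MEFs, and Rpl10 had 43.2 ± 8.88. The level of Rpl10 depends on how reads were divided with its copy Rpl10-ps3, described below. Rpl10l and Rpl3l, known from testis and muscle, gave 1 and 2 counts in all 14 libraries together.

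The libraries held 1669893 to 3296519 counts assigned to genes. Levels of 1 gene across lines are given as CPM, counts scaled to the library total with TMM factors. H3f3a, the targeted gene, gave 847 to 1427 CPM for WT MEFs against 7.29 to 18.8 for KO MEFs, and 1969 to 2417 for WT neurospheres against 26.2 to 70.9 for KO neurospheres. Whether the 3′ end counted here lies inside the altered part of the allele is not given in the labels. Fibroblast markers summed to 13630 to 21753 CPM in MEFs and 35.7 to 168 in neurospheres, and neural stem cell markers to 246 to 483 and 6267 to 11645. Of single markers, Olig2 was at 0 in all MEF lines and Twist2 at 0 in all neurosphere lines. WT MEFs 2 and KO MEFs 3 stood apart: the first principal component of the MEF lines (53% of variance) placed them at 72.6 and 67.3, and the other 6 lines between -29.1 and -18.7.

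Ribosomal protein genes took a larger share of counts in MEFs than in neurospheres. The lines of WT MEFs, in order of number, gave 6.24%, 4.53% and 7.06%, and those of KO MEFs gave 6.98%, 5.90%, 4.76%, 6.63% and 6.18%. The lines of WT neurospheres gave 3.12%, 3.8% and 2.70%, and those of KO neurospheres gave 3.00%, 2.84% and 4.40%. The highest neurosphere line, KO neurospheres 3, lay just under the lowest MEF line, WT MEFs 2, followed by KO MEFs 3. Without these 2 MEF lines the MEF range was 5.90% to 7.06%, and WT and KO lines overlapped within each cell type. Group means were 5.94% ± 1.29 (SD, n = 3) for WT MEFs, 6.09% ± 0.848 (n = 5) for KO MEFs, 3.21% ± 0.554 (n = 3) for WT neurospheres and 3.41% ± 0.856 (n = 3) for KO neurospheres. Mitochondrially encoded transcripts took 5.27% to 6.15% of counts in MEFs and 12.9% to 16.8% in neurospheres. Without them in the total, the shares were 4.80% to 7.48% in MEFs and 3.24% to 5.11% in neurospheres. KO neurospheres 3 then passed the 2 lowest MEF lines. In such bulk samples fewer cells of a type and less RNA per cell cannot be told apart.

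**Figure D1:**
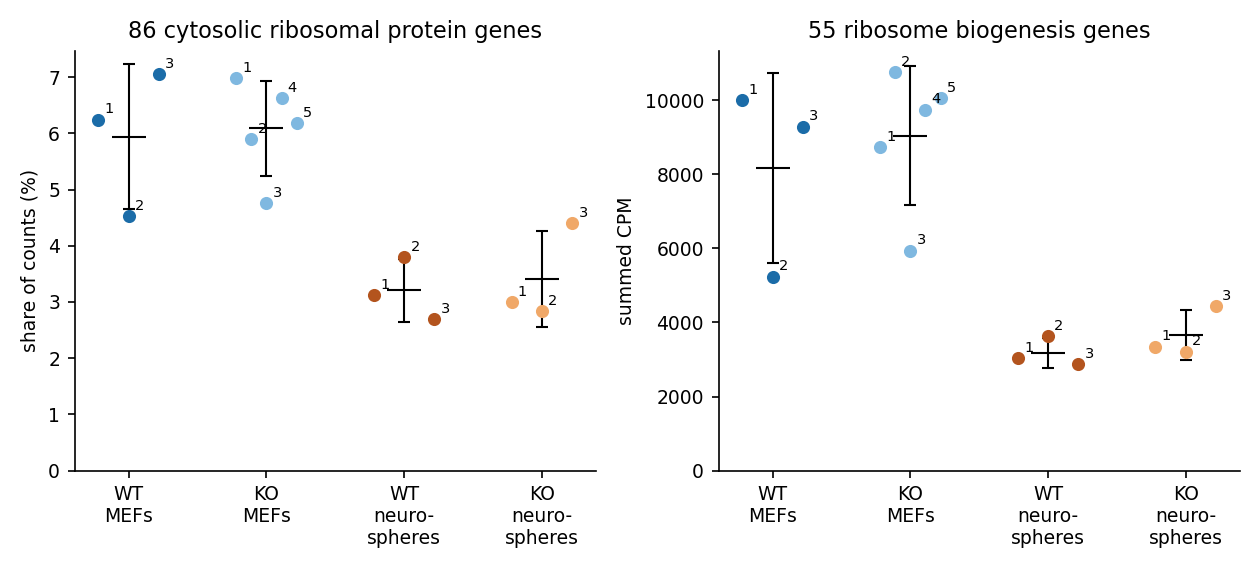
Share of all counts taken by the 86 ribosomal protein genes (left, percent) and summed CPM of 55 ribosome biogenesis genes (right) in each of 14 lines. Points are lines with their replicate number, and bars show the mean and SD of a group. Neurosphere lines reach 4.40% at most and MEF lines start at 4.53%; WT MEFs 2 and KO MEFs 3 are the lowest MEF lines in both panels.

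The 2 subunits moved together. Small subunit genes made up 43.7% to 45.6% of the ribosomal protein counts in every line, with MEFs (44.6% to 45.6%) and neurospheres (43.7% to 45.4%) overlapping.

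Gene by gene, WT neurospheres were compared with WT MEFs to see how the set differs between the cell types where H3f3a is intact. All 83 ribosomal protein genes tested were lower in neurospheres in sign, and 57 of them passed (edgeR quasi-likelihood test, Benjamini-Hochberg adjusted p under 0.05). None was higher. The p-values here and below measure the spread between lines. Over all 11084 genes tested, 20.8% were called lower, and another 20.8% higher. The median log2 difference was -0.95 for the set (quartiles -1.13 and -0.73) and 0.02 for all genes. It was -0.91 over 49 large subunit genes, of which 33 passed, and -0.96 over 34 small subunit genes, of which 24 passed. The count depended on the lines used. It was 22 without WT MEFs 1 or without WT MEFs 3, and 79 of 84 without WT MEFs 2. Without WT neurospheres 1 it was 26, and without WT neurospheres 3 it was 25. The share of all genes called with lines left out or settings changed is not given here or below. A change particular to the set thus cannot be told from a general one.

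The KO lines gave a second comparison of the cell types, with no line in common. Of 84 genes, 69 were lower in KO neurospheres than in KO MEFs and 0 higher, by the same test. The 69 include Rpl39l, which the filter kept only through its MEF counts. Over all 11417 genes, 26.1% were called lower and 25.4% higher. The median was -0.92, against -0.02 for all genes, and 76 passed when KO MEFs 3 was left out. Of the 83 genes tested in both comparisons, 54 passed in both, 3 in the WT lines alone (Rpl36a, Rps16 and Rps21), 14 in the KO lines alone and 12 in neither. Passing in 1 comparison alone does not show a difference between them, which the interaction term tests. Across the 83 genes the log2 differences of the 2 comparisons had a Pearson r of 0.85 and a Spearman rho of 0.84. This is a description across genes, which are not independent and share kit, depth range and neighbours in sequence.

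**Figure D2:**
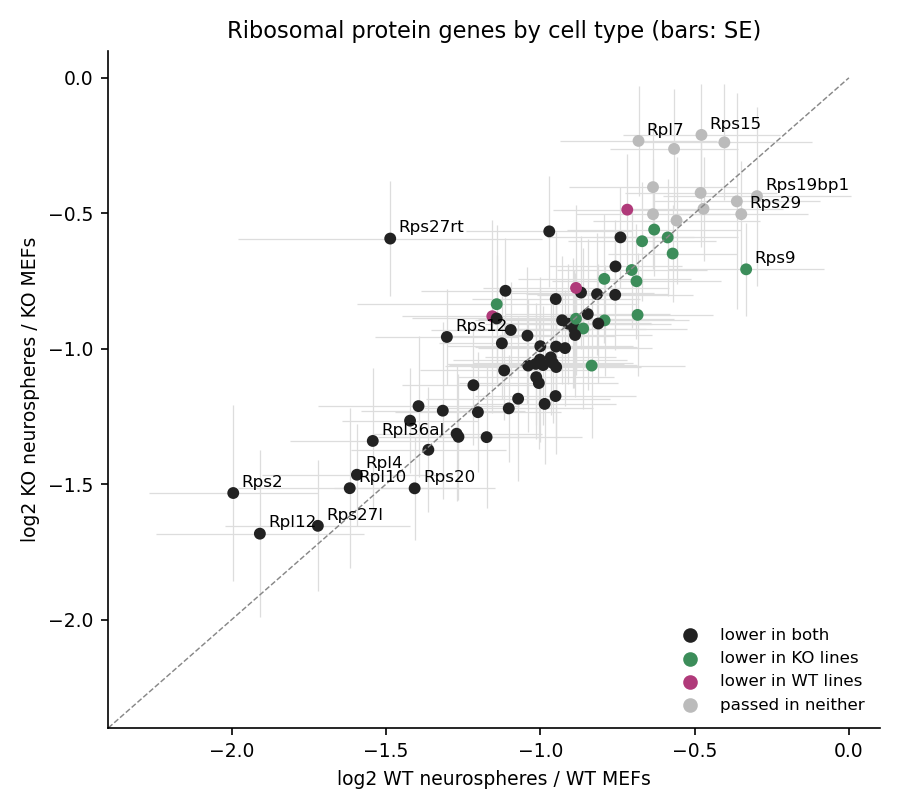
Log2 difference between neurospheres and MEFs in WT lines (x) and KO lines (y) for the 83 ribosomal protein genes tested in both, with SE as bars and the line of equality dashed. All points lie below 0 on both axes; Rps2, Rpl12 and Rps27l are at the lower left, and Rps15, Rpl7 and Rps29 near the upper right.

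Among the 83 genes tested, the largest difference in the WT lines was that of Rps2, a small subunit protein near the entry of the mRNA channel (chr17:24718116-24721929). Its CPM were 679, 439 and 813 among WT MEFs, 708, 542, 352, 692 and 704 among KO MEFs, 160.0, 141 and 177 among WT neurospheres and 167, 146 and 299 among KO neurospheres. Every neurosphere line lay below every MEF line, with KO neurospheres 3 the highest of its kind and KO MEFs 3 and WT MEFs 2 the lowest of theirs. Rps2 was 3.99-fold lower in WT neurospheres (log2 -2.0, SE 0.27, adjusted p = 0.00122) and 2.89-fold lower in KO neurospheres (log2 -1.53, SE 0.32, adjusted p = 0.00323). Without WT MEFs 2 and KO MEFs 3, log2 was -2.23 in the WT and -1.65 in the KO comparison. Reads of Rps2 can be shared with the transcribed copy Rps2-ps10.

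Rpl12, a large subunit protein at the base of the stalk where elongation factors bind (chr2:32961559-32965345), came next. Its CPM were 506, 301 and 554 among WT MEFs, 494, 452, 308, 544 and 447 among KO MEFs, 85.7, 163 and 108 among WT neurospheres and 97.9, 106 and 209 among KO neurospheres. The cell types did not overlap, and the same 2 MEF lines were the lowest of the 8. The fall was 3.76-fold in WT lines (log2 -1.91, SE 0.34, adjusted p = 0.00356) and 3.21-fold in KO lines (log2 -1.68, SE 0.31, adjusted p = 0.00148). Without those 2 lines log2 was -2.16 and -1.77.

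The stalk itself is built on Rplp0 and carries the acidic proteins of Rplp1 and Rplp2. Rplp1 fell the most of these, with 1303 to 1950.3 CPM in MEF lines and 468 to 883 in neurosphere lines (WT lines log2 -1.36, SE 0.25, adjusted p = 0.00418; KO lines log2 -1.37, SE 0.23, adjusted p = 0.000894). Rplp0 was at 659.9 to 1097 and 332 to 612 CPM (WT lines log2 -0.96, SE 0.26, adjusted p = 0.02), and Rplp2 at 702 to 1115 and 379.5 to 654 (WT lines log2 -0.89, SE 0.25, adjusted p = 0.023). None of these 3 genes overlapped between the cell types.

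Rpl4 lines part of the tunnel through which the new protein leaves the ribosome. It had 1110.0, 607 and 902 CPM among WT MEFs, 927, 939, 768, 1031 and 864 among KO MEFs, 246, 374 and 234 among WT neurospheres and 300.2, 285 and 388 among KO neurospheres. MEFs and neurospheres were again separate, and Rpl4 was 3.02-fold lower in the WT comparison (log2 -1.59, SE 0.31, adjusted p = 0.00505) and 2.76-fold lower in the KO comparison (log2 -1.47, SE 0.19, adjusted p = 0.000181). Without WT MEFs 2 and KO MEFs 3, log2 was -1.82 and -1.50 for Rpl4. Rps20, of the small subunit head, was at 1342 to 1598 CPM in MEFs and 392 to 692 in neurospheres (WT lines log2 -1.41, SE 0.26, adjusted p = 0.00426; KO lines log2 -1.52, SE 0.19, adjusted p = 0.000155). Unlike those of Rps2, Rpl12 and Rpl4, its 2 lowest MEF lines did not include KO MEFs 3.

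Other genes of at least 50 CPM with large falls in WT lines were Rpl36al (log2 -1.54), Rpl22l1 (-1.42), Rpl13a (-1.39), Rpl35 (-1.32) and Rps12 (-1.30). In KO lines these were Rpl36al (log2 -1.34), Rpl14 (-1.33), Rps6 (-1.33), Rpl6 (-1.31), Rpl22l1 (-1.27) and Rpl17 (-1.23). Rps6, the small subunit protein that S6 kinase phosphorylates, had 444 to 848 CPM in MEFs and 242 to 373 in neurospheres. Rpl13a also acts outside the ribosome, in the control of translation after interferon-gamma.

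At the other end were 12 genes that passed in neither comparison, among them Rpl7, Rpl13, Rpl31, Rpl36, Rpl37, Rpl37a, Rps14, Rps15, Rps19bp1, Rps27 and Rps29. Rps15, a protein of the small subunit head, had 237, 168 and 275 CPM among WT MEFs, 255, 247, 179, 269 and 243 among KO MEFs, 151, 195 and 135 among WT neurospheres and 219.7, 168 and 226 among KO neurospheres. The cell types overlapped, with a log2 difference of -0.48 (95% interval -1.07 to 0.11) in WT and -0.21 (-0.63 to 0.21) in KO lines. Rpl7 ranged over 1101 to 1831 CPM in MEFs and 792 to 1397 in neurospheres, also overlapping (log2 -0.68, -1.27 to -0.09, in WT and -0.23, -0.69 to 0.22, in KO lines). In WT lines both intervals include the median of the set, -0.95, and in KO lines both include 0 and end short of its median of -0.92. The genes are not shown to be equal between the cell types.

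Over the 84 genes kept by the filter on all 4 groups, 42 had all 6 neurosphere lines below all 8 MEF lines (50%). Of all 12117 genes kept, 18.6% had this pattern. Rpl39l, kept by the filter only through its MEF counts, is among the 42. WT MEFs 2 and KO MEFs 3 were low across these genes. They were left out after seeing the data, and leaving out low lines can only raise the count. Without them, 78 of the 84 genes (92.9%) and 24.3% of all genes had all neurosphere lines below the other 6 MEF lines. Over all 14 lines Rpl5 and Rpl11, which join the large subunit as a particle with the 5S rRNA, did not: Rpl5 had 702 to 1396 CPM in MEFs and 465 to 747 in neurospheres, and Rpl11 had 347 to 601 and 255 to 357. Both passed in the KO lines (log2 -0.89, adjusted p = 0.00542, and -0.71, adjusted p = 0.0195) and missed the threshold in the WT lines (log2 -0.88, adjusted p = 0.0573, and -0.70, adjusted p = 0.0501; edgeR quasi-likelihood test).

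The pyrimidine runs shown above were set beside these differences, without separating runs before the start from runs after it. In WT lines, 26 of the 32 tested genes with a run passed as lower (median log2 -0.96), and 18 of 31 without one (median -0.88). In KO lines it was 30 of 33 (median -0.96) and 24 of 31 (median -0.88). The 30 include Rpl39l, which the filter kept only through its MEF counts, so its direction was fixed beforehand. The quartiles of the 2 sets overlapped in both comparisons, and the difference between the sets was not tested.

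The paralogs differ in their known use: Rpl39l is a testis and stem cell relative of Rpl39, Rps27l is induced by p53, and Rpl22l1 is held down by Rpl22. Rpl39l (chr16:10170226-10174911) had 21, 2.88 and 40.3 CPM among WT MEFs and 45.9, 42.1, 4.86, 35.7 and 34.0 among KO MEFs, from 53, 8 and 132 and from 133, 123, 10, 103 and 90 counts. In neurospheres it had 2 counts in WT neurospheres 1 and 0 in the other 5 lines. MEF lines were all above, though WT MEFs 2 and KO MEFs 3 were several times under the other MEF lines. In the WT lines the ratio was 85.1 (exact 95% interval 23.2 to 708, counting error only), and in the KO lines Rpl39l was at least 79.2-fold lower in neurospheres, against a floor of 3 counts over the 3 libraries. Without WT MEFs 2 the ratio was 121 (32.9 to 1004), and without KO MEFs 3 the bound was 91.6-fold. It was not tested in the WT comparison by edgeR, since the filter removed it. In the KO comparison the filter kept it only through its MEF counts. Its direction was thus fixed beforehand, and its adjusted p there (0.00119, edgeR quasi-likelihood test) adds no support. Its share of the pair with Rpl39, in TPM, was 0.105% to 1.35% in MEFs and at most 0.0522% in neurospheres. Rpl39 itself fell in both comparisons (log2 -1.12 and -0.98).

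Rps27l (chr9:66946086-66949516) had 563, 452 and 534 CPM among WT MEFs, 535, 537, 425, 519 and 558 among KO MEFs, 93.0, 184 and 186 among WT neurospheres and 129, 127 and 227 among KO neurospheres. The cell types did not overlap (3.3-fold lower in WT lines, log2 -1.72, SE 0.30, adjusted p = 0.00336; 3.15-fold lower in KO lines, log2 -1.65, SE 0.24, adjusted p = 0.000385). Rps27, its partner, ranged over 419 to 769 CPM in MEFs and 316 to 613 in neurospheres, with overlap (log2 -0.40 in WT and -0.24 in KO lines, adjusted p = 0.285 and 0.376, edgeR quasi-likelihood test). Rps27l therefore held 25.5% to 34.9% of the TPM of the pair in MEFs and 8.95% to 22% in neurospheres.

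Rpl22l1 (chr3:28805436-28807424) had 439, 358 and 482 CPM among WT MEFs, 449, 376, 381, 439 and 386 among KO MEFs, 155, 182 and 133 among WT neurospheres and 124, 182 and 195 among KO neurospheres. It was lower in all neurosphere lines (log2 -1.42, SE 0.22, adjusted p = 0.00205 in WT; log2 -1.27, SE 0.19, adjusted p = 0.000525 in KO lines). Rpl22, with 347 to 550.2 CPM in MEFs and 216 to 383 in neurospheres, fell in KO lines (log2 -0.56, adjusted p = 0.0206) and missed the threshold in WT lines (log2 -0.63, adjusted p = 0.107; edgeR quasi-likelihood test). On TPM, which divide by transcript length, the Rpl22l1 share of the pair overlapped, at 69.0% to 80.5% in MEFs and 67.6% to 79.4% in neurospheres. By counts summed over lines, Rpl22l1 was below Rpl22 in every group, and further below in neurospheres. The sums were 3680 and 4112 in WT MEFs and 5472 and 6589 in KO MEFs. They were 1168 and 2257 in WT neurospheres and 1159 and 2307 in KO neurospheres.

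**Figure D3:**
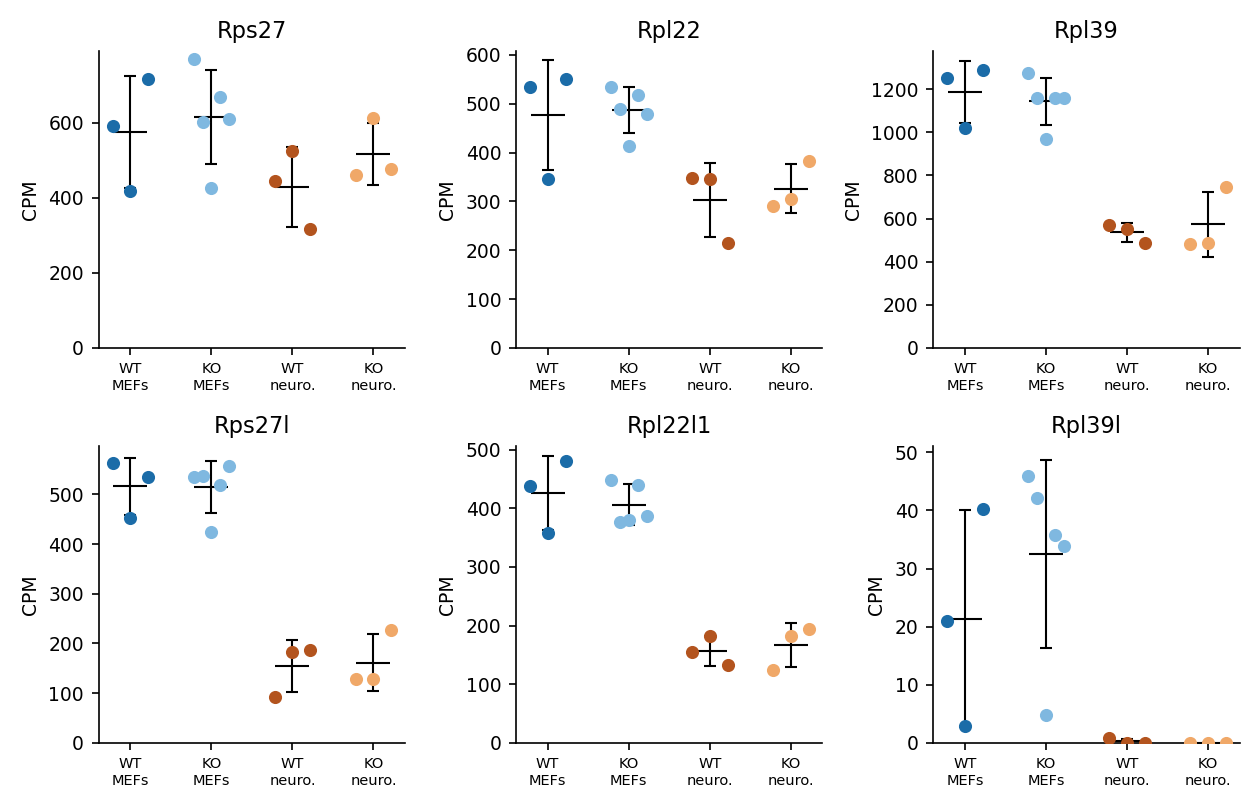
CPM of 3 pairs of paralogs in each line, by group, with mean and SD; every axis starts at 0 and has its own range. Rps27l, Rpl22l1 and Rpl39l are separate between MEFs and neurospheres, while Rps27 and Rpl22 overlap; Rpl39l is at or near 0 in all neurosphere lines.

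Rpl36a and Rpl36al both fell in WT lines (log2 -1.16 and -1.54), and Rpl36al also in KO lines. Rpl7l1, which acts in ribosome assembly, fell in both (log2 -0.81 and -0.91). Rps27rt, a retrogene of Rps27 that can share its reads, had 107, 41.2 and 149.8 CPM among WT MEFs, 104, 75.1, 56.5, 79.1 and 73.9 among KO MEFs, 49.1, 23.3 and 32.9 among WT neurospheres and 51.9, 49.7 and 51.2 among KO neurospheres. WT MEFs 2 lay within the neurosphere range. Rps27rt fell in both comparisons (log2 -1.49 and -0.59, adjusted p = 0.0453 and 0.0387, edgeR quasi-likelihood test). Its WT call was lost when WT MEFs 1, WT MEFs 3 or any WT neurosphere line was left out (log2 -1.81 to -1.07).

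The targeted allele was compared with WT in each cell type, which is the study's own contrast. In MEFs, 0 of 84 ribosomal protein genes passed (edgeR quasi-likelihood test), 0 had an unadjusted p under 0.05, and DESeq2 and limma on TPM also called 0. Over all 10789 genes 0.00927% (1 gene, H3f3a) was called. The log2 difference had a median of 0.03 (range -0.36 to 0.60), with 55 genes above 0 and 29 below, beside a median of -0.00 for all genes. This sign rested on the lines that stand apart: without WT MEFs 2 and KO MEFs 3, the median was -0.07 and 58 of 84 genes were below 0, with 0 called. The 95% interval of 82 of the 84 genes lay within a 2-fold change either way, with a median half-width of 0.45 on the log2 scale. Of 8 macrophage and blood markers, 6 were tested and all 6 were lower in KO MEFs in sign, with 0 called. They summed to 55 to 164 CPM in WT and 15.5 to 78.2 in KO MEFs, and their part in these values was not tested.

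The genes with the smallest p in MEFs and at least 50 CPM included Rpl14, Rps27rt, Rps9, Rpl7l1 and Rpl21. Rpl14 had 583, 342 and 573 CPM in WT and 654, 601, 436, 649.9 and 579.9 among KO MEFs. The groups overlapped (log2 0.22, 95% interval -0.23 to 0.68), and WT MEFs 2 and KO MEFs 3 were the lowest of their groups. The others named had log2 differences of -0.36 (Rps27rt), 0.14 (Rps9), 0.16 (Rpl7l1) and 0.16 (Rpl21), with adjusted p of 1.00 each by the edgeR quasi-likelihood test. Rpl39l had the largest difference of all 84 (log2 0.60, 95% interval -1.23 to 2.43), with the widest interval.

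In neurospheres 0 of 83 genes passed, 0 had an unadjusted p under 0.05, and DESeq2 and limma called 0 (edgeR over all 10628 genes: 0.00941%, 1 gene, H3f3a). The median was 0.09 (range -0.21 to 0.56) with 62 genes above 0, beside 0.01 for all genes. This sign rested on 1 line: without KO neurospheres 3 the median was -0.13 and 66 of 83 genes were below 0, with 0 called. The interval of 75 of the 83 genes lay within 2-fold either way, with a median half-width of 0.60. Rps26 had 402, 472 and 372 CPM in WT and 546, 503 and 581 among KO neurospheres. All 3 KO lines were above all 3 WT lines, yet the difference missed the threshold (log2 0.40, 95% interval -0.08 to 0.88, unadjusted p = 0.0906, edgeR quasi-likelihood test). Rpl7 had 1044, 951 and 792 CPM in WT and 1018, 1378 and 1397 among KO neurospheres (log2 0.46, -0.09 to 1.02). KO neurospheres 1 lay among the WT lines and the other 2 above them. Rps27rt (0.56), Rpl30 (0.40), Rps15 (0.36) and Rps12 (0.33) followed in order of p, and none passed.

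The interaction asked whether the KO difference differed between the cell types. Of 84 genes 0 passed (0 of 12117 over all genes, 0.0%), 0 had an unadjusted p under 0.05, and DESeq2 and limma called 0. The median was 0.01, with 44 genes above 0 and 40 below. The smallest p was that of Rps27rt (log2 0.90, 95% interval -0.20 to 1.99), followed by Rpl7 (0.45), Rps12 (0.35), Rps9 (-0.37), Rpl30 (0.41) and Rps2 (0.46). Without WT MEFs 2 and KO MEFs 3 the median was 0.11 with 14 genes below 0. For this test 66 of 84 intervals lay within 2-fold either way, and for the others a 2-fold interaction lay inside the interval.

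Lines of the same group also differed across nearly the whole set. Relative to the median of the 8 MEF lines, 0 of 84 genes in WT MEFs 2 and 2 in KO MEFs 3 were above it, with median log2 deviations of -0.58 and -0.45. In WT MEFs 3, KO MEFs 1 and KO MEFs 4 it was 77, 76 and 75 genes. WT MEFs 1, KO MEFs 5 and KO MEFs 2 had 57, 30 and 19. The share of all genes above the median is not given for any line, so a wider shift cannot be told from one of the set. Among the neurospheres, 83 genes were above the median of the 6 lines in KO neurospheres 3 (median deviation 0.43) and 72 in WT neurospheres 2, against 42, 25, 19 and 9 in WT neurospheres 1, KO neurospheres 1, KO neurospheres 2 and WT neurospheres 3. Other genes of the pathway were low in the same MEF lines: WT MEFs 2 had 5237 CPM summed over 55 ribosome biogenesis genes and KO MEFs 3 had 5935, against 8735 to 10751 for the other 6 lines. WT MEFs 2 had 2744036 counts, within the range of the other MEF lines, and KO MEFs 3 had 2081081, the fewest of the 8. The part of depth in these values was not tested.

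**Figure D4:**
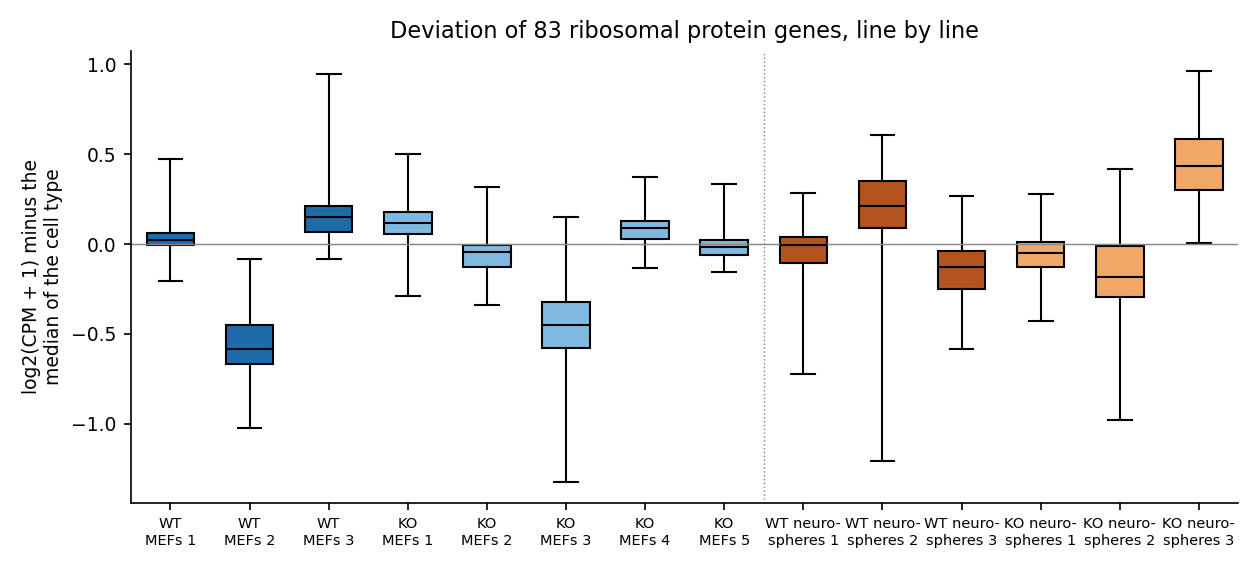
Deviation of log2(CPM + 1) from the median of the cell type for 83 ribosomal protein genes (the detected ones without Rpl39l) in each line. Boxes span the quartiles with the median as a bar, and whiskers reach the extremes. WT MEFs 2 and KO MEFs 3 lie below 0 and KO neurospheres 3 above it, each with its whole box.

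Rps24, a small subunit protein needed for processing of the rRNA precursor, has alternative last exons, known to be used differently between tissues (chr14:24487125-24496959). In GENCODE M21, Rps24-202 has 6 exons and includes a 20-base exon (chr14:24495430-24495449) that begins with the stop codon, so its coding sequence has 130 codons. Rps24-210 has 5 exons, skips that exon and reads on into the last one (chr14:24495775-24496959), for 133 codons. The RNA around the junction is printed because it shows where the transcripts part: the last 9 bases of exon 4 (chr14:24493485-24493493) and then the whole 20-base exon, or the first 12 bases of the last exon (chr14:24495775-24495786), plus strand, from GENCODE M21 (GRCm38). Capitals mark the stop codon.
Rps24-202: ggcaaaaagTGAgtggagattggatacag
Rps24-210: ggcaaaaagccaaaggagTAG
The transcripts also end 1114 bases apart, at 24495845 and 24496959, which a 3′ kit can separate. The shares below are the authors' estimates per transcript. Reads across the junction were not counted here, so use of the 20-base exon and of the 3′ end cannot be told apart.

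By counts, Rps24-210 was the main form in MEFs and Rps24-202 in neurospheres. Rps24-210 made up 64.6%, 38.7% and 60.5% of Rps24 counts in the lines of WT MEFs, in order of number, and 65.8%, 61.5%, 52.5%, 68.4% and 66.2% in those of KO MEFs. Its share was 27.3%, 44.2% and 29.3% in the lines of WT neurospheres and 30.4%, 32.1% and 26.2% in those of KO neurospheres. WT MEFs 2 lay below WT neurospheres 2, and otherwise the cell types were apart. The mean was 59.8% ± 9.84 (SD, n = 8) in MEFs and 31.6% ± 6.55 (n = 6) in neurospheres, 28.2 percentage points lower (exact two-sided permutation test over lines, p = 0.00133). On the deposited TPM, which divide by the lengths of these unequal transcripts, Rps24-202 was the main form in both cell types, with means of 64.7% and 90.3%. There Rps24-210 held 21.1% ± 6.12 (SD, n = 8) in MEFs and 6.40% ± 1.94 (n = 6) in neurospheres, -14.7 points (exact permutation p = 0.00133). By counts, the difference within KO lines was -33.3 points (exact permutation p = 0.0357, the smallest that 5 against 3 lines allow). Within WT lines it was -21.0 points (exact permutation p = 0.2, where 3 against 3 cannot go below 0.1). Without WT MEFs 2 and KO MEFs 3 it was -32.9 points (exact permutation p = 0.00216).

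Rps24-202 showed the reverse, with 22.9% to 56.9% in MEFs and 52.6% to 71.0% in neurospheres. KO and WT lines differed by 8.29 points for Rps24-210 in MEFs (exact permutation p = 0.286, 5 against 3 lines) and by -4.04 points in neurospheres (exact permutation p = 0.7, 3 against 3 lines). The gene as a whole had 815 to 1127 CPM in MEFs and 342 to 599 in neurospheres (WT lines log2 -0.97, SE 0.21, adjusted p = 0.00879), like the median of the set.

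**Figure D5:**
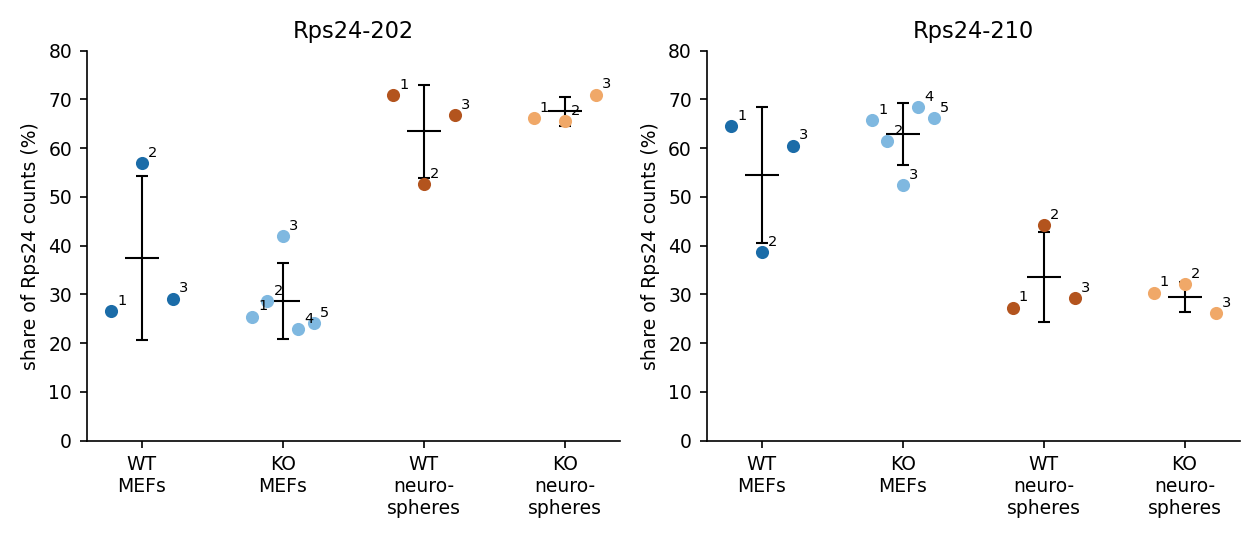
Share of Rps24 counts assigned to Rps24-202 (left) and Rps24-210 (right) in each line, in percent, with mean and SD per group. By counts, MEF lines other than WT MEFs 2 hold mostly Rps24-210 and neurosphere lines mostly Rps24-202, while on TPM Rps24-202 leads in both cell types; WT MEFs 2 is the MEF line nearest to the neurospheres, at 56.9% and 38.7%.

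Among 81 genes with at least 100 counts a line on average, 7 had a transcript whose mean share differed by over 10 points between the cell types. These were Rps24, Rps18, Rpl30, Rpl24, Rps15a, Rps19 and Rpl38. No such share over all genes is given here, so the count is not a result about ribosomal protein genes. Rpl30-202 held 29.9% to 43.6% of Rpl30 counts in 7 MEF lines and 0 in WT MEFs 2, and 9.0% in KO neurospheres 3 and 0 in the other 5 neurosphere lines. Rps18-201 was at 0 in WT neurospheres 2 and KO neurospheres 2 and at 71.8% to 95.7% in all other lines. Such steps between near 0 and most of a gene's counts in single lines limit what these shares show.

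Ribosome components outside the rule were measured too. Rack1, a signalling scaffold on the small subunit, fell in both comparisons (WT lines log2 -1.33, SE 0.30, adjusted p = 0.0104; KO lines log2 -1.45, SE 0.24, adjusted p = 0.000835). Fau, made as a ubiquitin-like fusion, had log2 -0.65 (adjusted p = 0.107) in WT lines and fell in KO lines (-1.04, adjusted p = 0.00267; edgeR quasi-likelihood test). The member Rps27a, the ubiquitin fusion of the small subunit, fell in both (log2 -1.14 and -0.89).

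Other lists are read beside the share of all genes called, which was 20.8% lower and 20.8% higher (41.6% either way) in the WT lines, and 26.1% lower and 25.4% higher (51.5% either way) in the KO lines. Most genes of ribosome assembly were also lower in neurospheres. Of 52 tested genes for biogenesis and RNA polymerase I, 34 fell in WT lines and 0 rose (median -1.35), and in KO lines 35 of 54 fell and 1, Ubtf, rose (median -1.15). Nop58 and Nop56, of the methylation-guiding box C/D particles, fell (WT log2 -2.41 and -1.92), as did Tcof1, a factor of rRNA transcription (-1.76), and Lyar (-2.29). Of 16 chaperones and importers of ribosomal proteins, 8 fell and 0 rose in WT lines, and 6 fell and 1, Aamp, rose in KO lines (log2 0.75). In the KO lines the share of this list called either way was near that of all genes and is not a result about the list. The importin Ipo5 fell in both (log2 -1.80 and -1.62), as did Ipo7 (-1.39 and -1.24).

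Translation factors differed from each other. Of 40 initiation factors and their inhibitors, 19 fell and 2 rose in WT lines and 23 fell and 2 rose in KO lines (median -0.72 in each). The genes that rose were Eif1b and Eif4ebp2 in both comparisons. Eif1a (log2 -3.40) and Eif2s1, the alpha subunit of eIF2 (-1.92), fell in WT lines. The inhibitors of eIF4E went opposite ways: Eif4ebp1 fell (WT -2.67, KO -2.50) and Eif4ebp2 rose (WT 1.33, KO 1.78). In the KO lines the share of elongation factors and other TOP mRNAs called either way was near that of all genes. That count is not a result about the list. Of the 16 genes in this list 8 fell and 0 rose in each comparison. Among them Eef1g fell (WT -1.72) and Npm1 fell (-1.68), while Eef1a1, which delivers tRNA to the ribosome, missed the threshold (-0.68, adjusted p = 0.0765), and so did Eef2 (-0.21, adjusted p = 0.521; edgeR quasi-likelihood test).

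Mitochondrial ribosomal proteins, from the same function in another compartment, were mostly not called. Of 78, 7 fell and 2 rose in WT lines and 13 fell and 4 rose in KO lines, with medians of -0.24 and -0.22. Mrps26 fell (WT log2 -1.94) and Mrpl48 rose (1.35). The other genes that rose were Mrps33 in both comparisons and Mrpl24 and Mrps31 in the KO lines. Of 23 tested regulators of MYC and mTORC1, 7 rose and 2 fell in WT lines and 6 rose and 4 fell in KO lines. Those that fell were Larp1 and Rheb in both comparisons and Rps6kb1 and Rragc in the KO lines. The MYC antagonists Mxd4 (WT 2.24) and Mxi1 (2.23) and the lysosomal GTPase Rragd (5.24) rose, while Larp1, which binds TOP mRNAs, fell (-1.14). The share of genes called either way in the MYC and mTORC1 list was near that of all genes in both comparisons. In the WT lines this also held for the p53 list. Such counts are not a result about either list. Of 17 p53 pathway genes 6 fell and 2 rose in WT lines, and 8 fell and 3 rose in KO lines. Those that rose were Sesn1 and Trp53inp1 in both comparisons and Mdm4 in the KO lines. Ccng1 and Phlda3, targets of p53, fell (WT -2.45 and -1.80), and Sesn1, another, rose (2.24). In the KO against WT comparisons 0 genes of these lists passed in either cell type by the edgeR quasi-likelihood test. At an unadjusted p under 0.05 each list had at most 3 genes in MEFs and at most 5 in neurospheres. Over all genes it was 175 of 10789 in MEFs and 227 of 10628 in neurospheres. The 3 were of 78 mitochondrial ribosomal proteins, and the 5 were of 53 biogenesis genes. In sign, 44 biogenesis genes were higher and 9 lower in KO neurospheres, and 47 higher and 7 lower in KO MEFs. WT MEFs 2 and KO MEFs 3, which stand apart, are among the MEF lines. No other tool was run on these lists.

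Copies of ribosomal protein genes take part of their reads. GENCODE M21 names 286 pseudogenes after 60 of the 86 genes, of which 168 were at 0 in all lines. Only 5 reached a mean of 50 CPM, and the top 4 held 95.8% of all pseudogene counts. Rpl10-ps3, which GENCODE annotates as protein coding, had 2864 ± 395 CPM (SD, n = 8) in MEFs and 1078 ± 114 (n = 6) in neurospheres, while Rpl10 itself had 13.9 to 22.5 and 4.69 to 7.64. The copy thus held 99.4% of the summed counts, and how the authors' tool divided reads between them sets the level listed for Rpl10, a protein that joins the large subunit late. Rps2-ps10 held 49.6% of its sum with Rps2, Rpl9-ps6 88.2% and Rpl36a-ps1 67.3%. All 4 copies fell in both comparisons, as their named genes did where those passed: log2 was -1.30 and -1.46 for Rpl10-ps3, and -1.47 and -1.51 for Rps2-ps10. With the named copies added to their genes, 62 ribosomal protein genes passed in the WT and 70 in the KO comparison.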

How the data were processed

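RNA from 14 lines was measured with a 3′ end kit (QuantSeq FWD). The authors' deposited files give estimated counts and TPM per transcript from Salmon 1.1.0, with edgeR also listed, per the submitters' processing notes. The transcript set and genome build were not given in the sources used here. TPM values were computed by the authors' tool and deposited with the counts. Of 116945 transcripts per file, 115638 matched GENCODE M21 with version and 385 by identifier. The 922 unmatched held 0.239% to 0.4% of reads and were left out. Estimated counts were summed per gene and rounded.

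Each comparison used only its own groups (the interaction all 4), with TMM, filterByExpr and the robust quasi-likelihood test of edgeR 4.0.16 (R 4.3.3) and Benjamini-Hochberg adjustment over all genes at 0.05. DESeq2 1.42.0, limma 3.58.1 on log2(TPM + 1), and other filters, scalings and left-out lines were alternatives. Leaving out WT MEFs 2 and KO MEFs 3 together was chosen after seeing the data. Tests were run on simulated data: in these designs 14% (KO against WT MEFs) and 6% (KO against WT neurospheres) of 100 genes changed 2-fold were found, and 89% and 74% of 100 changed 4-fold. The changed genes were drawn from all genes above a floor in abundance, so these rates are not those of the ribosomal protein genes.

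Named genes were up to 12 passing members each way by size with at least 50 CPM, or the 6 of smallest p where fewer than 5 passed, with paralogs, stalk genes, Rpl5, Rpl11, Rps24, the extremes of TPM and up to 4 passing genes per other list. Genes named beyond this (Eef1a1, Eef2, Rps27a, WT values of genes named from KO lines, and the few genes listed by name alone behind small counts) were chosen after their values were seen. The members and lists were chosen with earlier results of these data known. Some genes that the rule names are not reported here.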

Additional observations from a re-analysis of the deposited data

Results flagged for a closer look

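In KO MEFs 38 measures were checked for 1 line far from the other 4, a check that chance alone meets in about 1 of 20 groups, and 2 met it. Rpl6, a large subunit protein, had 869.6 CPM in KO MEFs 3, against 1231 in the nearest line and 1347 at the other end of the group. Rps6 had 518 CPM in the same line, against 757 in the nearest and 848 at the other end. KO MEFs 3 also stood apart on the first principal component of all genes.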

How the results depend on the processing

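The labels do not say whether replicate numbers pair the lines. Correlations of same-numbered lines ran from -0.59 to 0.22, from too few lines to show or exclude pairing. With the replicate number as a block, 29 ribosomal protein genes passed as lower in WT neurospheres and 12 in KO neurospheres, and 0 passed between KO and WT in either cell type. Leaving out 1 line at a time gave 22 to 79 lower genes in the WT comparison and 54 to 76 in the KO comparison. The share of all genes called in each of these settings is not given, so a general change in calls cannot be told from one of the set. The cause was not tested. The other settings left these counts within 1.5 times, and no member was called higher in neurospheres in any setting run. As a share of TPM, MEFs gave the set 19.5% (WT) and 19.99% (KO), and neurospheres 9.87% (WT) and 10.4% (KO), since that scale divides by length. For Rps24-210 the WT lines alone gave -21.0 points (exact permutation p = 0.2, 3 against 3 lines), and the TPM -14.7 points (exact permutation p = 0.00133, 8 against 6 lines) with Rps24-202 as the main form in both cell types.

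Some KO against WT differences that had not passed changed sign when 1 line was left out. In MEFs, Rpl21 ranged from -0.046 (without WT MEFs 2) to 0.27, Rpl22l1 from -0.18 to 0.028 (without WT MEFs 3) and Rps27rt from -0.73 to 0.064 (without WT MEFs 3). In neurospheres Rpl22l1 ranged from -0.035 (without KO neurospheres 3) to 0.30. Over 101 named genes by comparison and 1949 alternatives, 35 calls were lost, 15 of them with the block and 18 when 1 line was left out, in 17 of the 101, and the 2 sign changes among the 101 were those of Rpl21 and Rps27rt. In the KO against WT simulations, 14% (MEFs) and 6% (neurospheres) of 2-fold changes were found, in genes not drawn from this set in particular.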
